A study of Homo sapiens with 8 samples.

Results

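ABCB1 encodes P-glycoprotein, a pump that uses ATP to move many drugs out of cells, and it lies on the long arm of chromosome 7 in band 7q21. It and 9 genes beside it (ABCB4, RUNDC3B, SLC25A40, DBF4, ADAM22, CROT, TMEM243, DMTF1 and SRI) are described here, which is 10 of the 37441 genes in the table of counts. They were selected from measured values of the same data, because ABCB1 and RUNDC3B had almost no counts in NCI-H1581 and more than 1000 in each library of its resistant variant, and the other 8 were taken for lying near them. The comparison of NCI-H1581R with NCI-H1581 is therefore given as a description without tests for these genes, and NCI-H1703R against NCI-H1703, which played no part in the choice, was tested.

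RNA was sequenced from NCI-H1581 and NCI-H1703, established cell lines from non-small cell lung cancer that respond to inhibitors of fibroblast growth factor receptors (FGFR), and from a variant of each selected for resistance to the FGFR inhibitor CPL304110. The variants NCI-H1581R and NCI-H1703R were obtained by raising the inhibitor from 50 nM to 2.5 µM and 5 µM, respectively, over 4 to 6 months. Each resistant variant is a single selected population, so its 2 replicates are repeated cultures of that population and not repeated selections. Cells of all 4 variants were harvested 24 h after a change of medium, and whether that medium contained the inhibitor is not stated in the sources used here. The 8 libraries, 2 replicates for each variant, held from 33800389 to 40031710 counts, so that 3 counts, the limit that a count of 0 allows, correspond to 0.0749 to 0.0888 counts per 1000000 counts of a library (CPM). These limits and the counting intervals below cover counting error only.

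The 2 pumps of the region have different tasks. P-glycoprotein exports hydrophobic drugs, is found in the gut, kidney and blood-brain barrier and is best known for multidrug resistance of tumours. ABCB4 encodes a closely related floppase of liver cells that brings phosphatidylcholine to the bile. The other neighbours encode no pumps of this family. Along the chromosome the order is DMTF1, TMEM243, CROT, ABCB4, ABCB1, RUNDC3B, SLC25A40, DBF4, ADAM22 and SRI, from chr7:87152409 to chr7:88226993 in GRCh38.

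ABCB1 lies on the minus strand at chr7:87503017-87713323, and RUNDC3B, on the plus strand at chr7:87627548-87832296, begins inside it. No exon of RUNDC3B overlaps an exon of ABCB1, and the transcripts of RUNDC3B share no run of 31 bases with those of ABCB1. RefSeq (GRCh38.p14) gives 2 start sites for ABCB1, at chr7:87713295 and, 112.4 kb further into the gene, at chr7:87600884. The start of RUNDC3B, at chr7:87628398, lies 27.5 kb from the second. The gene-level counts do not tell which start of ABCB1 was used.

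The sequences in front of the starts of ABCB1, RUNDC3B and ADAM22 are shown because these are the genes that came up from a low level in NCI-H1581R. Stretches inside exons are left out, except for a window of 30 bases at a match of ABCB1, shown beside the same window of RUNDC3B. The stretch before the first ABCB1 start, which had no match to the letters marked, is left out too. Capitals mark the letters CCAAT or GGGCGG on either strand (ATTGG and CCGCCC on the reverse strand). The first stretch covers bases 250 to 195 before the second ABCB1 start (chr7:87601079-87601134, minus strand), the second bases 91 to 62 before it (chr7:87600946-87600975, within an exon of a longer transcript), the third bases 250 to 1 before the RUNDC3B start (chr7:87628148-87628397, plus strand), the fourth bases 88 to 59 of the same, and the last bases 250 to 109 before the ADAM22 start (chr7:87934001-87934142, plus strand).
ABCB1, bases 250 to 195: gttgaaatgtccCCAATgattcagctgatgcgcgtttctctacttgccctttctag
ABCB1, bases 91 to 62: gtggtgaggctgATTGGctgggcaggaaca
RUNDC3B, bases 250 to 1: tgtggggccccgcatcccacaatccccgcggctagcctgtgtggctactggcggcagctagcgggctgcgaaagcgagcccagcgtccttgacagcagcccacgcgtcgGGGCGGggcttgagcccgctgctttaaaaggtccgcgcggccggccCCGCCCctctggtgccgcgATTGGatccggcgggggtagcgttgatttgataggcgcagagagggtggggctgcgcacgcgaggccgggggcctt
RUNDC3B, bases 88 to 59: tctggtgccgcgATTGGatccggcgggggt
ADAM22, bases 250 to 109: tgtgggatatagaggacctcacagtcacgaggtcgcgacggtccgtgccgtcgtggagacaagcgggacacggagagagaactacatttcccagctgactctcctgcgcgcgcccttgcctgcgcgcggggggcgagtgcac

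ABCB1 and RUNDC3B each had CCAAT on the reverse strand at a like distance from the start, at bases 79 to 75 and 76 to 72. TMEM243, whose levels overlapped between NCI-H1581 and NCI-H1581R, also had it at bases 76 to 72 before its start at chr7:87220539. The spacing was therefore not particular to the genes that came up from a low level. CCAAT, the letters that the factor NF-Y binds, occurred on either strand in 32% of the 35114 promoters of 250 bases in the table and in 8 of the 13 promoters of the 9 members it holds (ABCB4 had no entry). GGGCGG, the letters of a GC box, occurred in 42.6% of all promoters and in 10 of the 13, with 2 matches at RUNDC3B, 2 at ADAM22 and none at either start of ABCB1. The 13 overlap in part. Those of SLC25A40 and DBF4 hold the same GGGCGG sites. Those of the TMEM243 starts at chr7:87220539 and chr7:87220587 share their CCAAT sites and a GGGCGG site. The 8 and the 10 therefore count some sites more than once. The promoter of RUNDC3B was rich in GC (70.8%, with 28 CG), that of the second ABCB1 start was close to the median of all promoters (55.6% with 12 CG, against 58.0% and 11), and that of the first ABCB1 start was poor in both (39.2% with 1 CG, and none of the motifs searched). The third motif searched, TATAAA, occurred in 10.7% of all promoters and, among the members, in front of 1 start of SRI. These matches are descriptions of the letters and not of binding.

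ABCB1 had 1 and 4 counts in NCI-H1581 and 8585 and 9573 in NCI-H1581R. It also had 1 and 0 counts in NCI-H1703 and 1 and 3 in NCI-H1703R. NCI-H1581R was thus the only variant of the 4 with more than a few counts, at 236 ± 10.7 CPM (SD, n = 2), and the ratio to NCI-H1581 was 3500 (95% counting interval from 1500 to 10800, set by the 5 counts of the sensitive libraries). Per kb of the canonical transcript this was 45.3 ± 2.05 CPM, the highest level of the 10 genes in NCI-H1581R and above that of 89.6% of the 17177 genes with a known length.

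ABCB4, the neighbour most like ABCB1, stayed close to the detection limit. It had 0 and 0 counts in NCI-H1581, 14 and 13 in NCI-H1581R, and 0 in all 4 libraries of NCI-H1703 and NCI-H1703R. Against a limit of 3 counts per library it was at least 4.32-fold higher in NCI-H1581R than in NCI-H1581. Its counts came to 0.163% and 0.136% of those of ABCB1 in the same libraries. Since 2.62% of the 31-base runs of ABCB4 also occur in ABCB1, Salmon could assign some reads of one gene to the other, and the 27 counts of ABCB4 are uncertain for that reason.

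RUNDC3B, which encodes a protein with a RUN domain, had 1 and 0 counts in NCI-H1581 and 2602 and 1972 in NCI-H1581R. In NCI-H1703 it had 3 and 6 counts, and in NCI-H1703R 2 and 1. Both NCI-H1581R libraries again stood far above the other 6, with 59.6 ± 13.5 CPM (n = 2) and a ratio to NCI-H1581 of 4410 (791 to 174000, from 1 count in the sensitive libraries). Per kb its level in NCI-H1581R was 14.7 ± 3.31 CPM, below ABCB1, and its range overlapped that of DBF4. Its counts were 30.3% and 20.6% of those of ABCB1 in the 2 libraries.

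ADAM22, a catalytically inactive relative of the ADAM proteases that acts as a receptor for the secreted LGI proteins at synapses, was low in NCI-H1581 as well. It had 10 and 12 counts there and 650 and 898 in NCI-H1581R, a ratio of 67.8 (44.6 to 109). Unlike ABCB1 and RUNDC3B it was also present in the other line, with 616 and 604 counts in NCI-H1703 and 847 and 774 in NCI-H1703R. Its 17.3 and 22.8 CPM in NCI-H1581R overlapped the range of NCI-H1703 (17.4 ± 0.998 CPM) and that of NCI-H1703R (21.4 ± 1.39 CPM), while NCI-H1703 stood 58.2-fold above NCI-H1581.

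**Figure D1:**
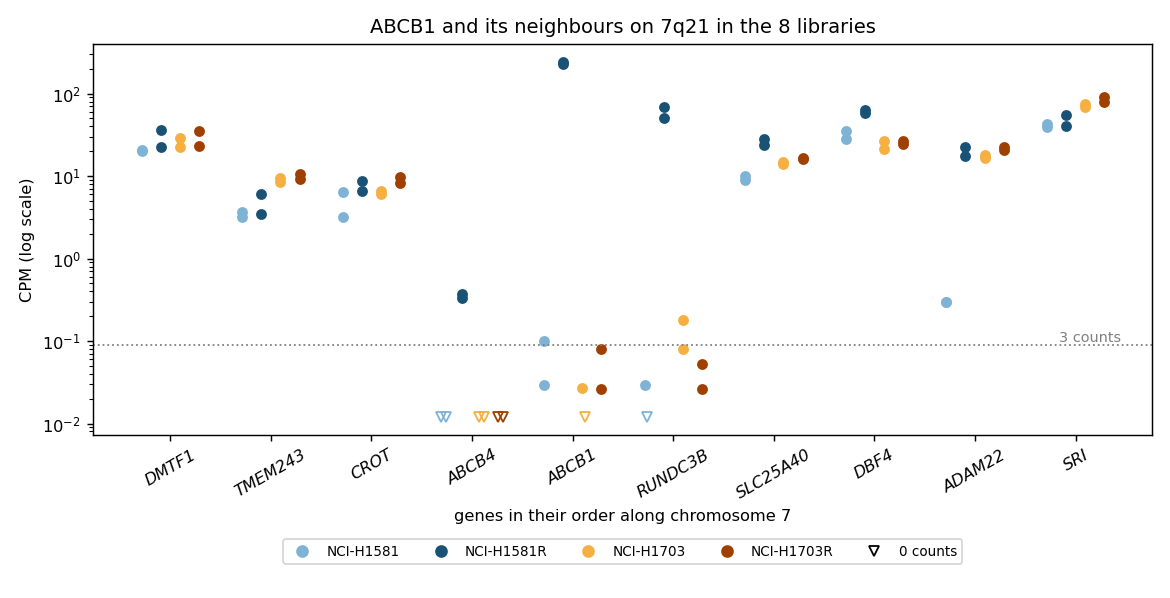
CPM of the 10 genes in each library on a log axis, with the genes in their order along chromosome 7 and the 4 variants in different colours. Points are single libraries, open triangles at the bottom are libraries with 0 counts, and the dotted line is the highest CPM that 3 counts stand for. ABCB1 and RUNDC3B are above the line by a wide margin in NCI-H1581R alone, ADAM22 is low in NCI-H1581 alone, and the 6 other genes apart from ABCB4 are well above the line in all libraries.

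SLC25A40 and DBF4 lie head to head, with RefSeq starts 133 bases apart, and both were higher in NCI-H1581R. SLC25A40, a mitochondrial carrier that takes glutathione into the matrix, had 341 and 356 counts in NCI-H1581, 1051 and 940 in NCI-H1581R, 543 and 473 in NCI-H1703, and 633 and 613 in NCI-H1703R. It was 2.75-fold higher in NCI-H1581R than in NCI-H1581 (log2 fold change 1.46, SE 0.20), and both of these resistant libraries exceeded the other 6 in CPM.

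DBF4, the regulatory subunit of the kinase CDC7 that starts DNA replication, had 937 and 1426 counts in NCI-H1581, 2172 and 2516 in NCI-H1581R, 790 and 879 in NCI-H1703, and 939 and 998 in NCI-H1703R. It was 1.93-fold higher in NCI-H1581R than in NCI-H1581 (log2 fold change 0.95, SE 0.20), and the 2 NCI-H1581R libraries were again the highest of all in CPM. The exons of both genes overlap by 145 bases on opposite strands, and 22.3% of the 31-base runs of DBF4 also occur in its pseudogene DBF4P1, so reads could be split for this gene.

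The remaining 4 genes differed less. CROT, a peroxisomal enzyme that transfers medium-chain fatty acids to carnitine, had 108 and 257 counts in NCI-H1581, and 250 and 345 in NCI-H1581R (log2 fold change 0.67, SE 0.38), and its CPM did not overlap. DMTF1, a transcription factor that activates the ARF tumour suppressor, had 20.6 and 20.3 CPM in NCI-H1581, and 22.4 and 36.6 in NCI-H1581R (0.54, SE 0.27), so that most of the difference came from replicate 2. TMEM243, a small membrane protein, had 122 and 128 counts in NCI-H1581, and 230 and 136 in NCI-H1581R (0.50, SE 0.37). SRI, which encodes sorcin, a calcium-binding protein that modulates the ryanodine receptor, had 39.6 and 42.3 CPM in NCI-H1581, and 55.3 and 39.9 in NCI-H1581R (0.22, SE 0.21), a difference that was -0.01 with offsets for GC content and length and -0.02 without replicate 1 of NCI-H1581R. The variants overlapped for TMEM243 and SRI. TMEM243 and DMTF1 share 178 exon bases on opposite strands, which is 5.44% of those of TMEM243 and 1.9% of those of DMTF1. Reads from that stretch may not be told apart.

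In NCI-H1581R against NCI-H1581, 5 of the 10 genes had a log2 fold change over 1, which 14.6% of the 18203 genes tested had, and 8 of 10 had both resistant libraries above both sensitive ones, against 27.1% of all genes. The median log2 fold change was 1.20 over the 10 genes and 0.04 over all genes. The genes were chosen from this comparison, so these counts describe the choice and nothing is read from them. ABCB4 passed the filter on low counts, 10 counts over the 8 libraries, only through NCI-H1581R.

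The order of the levels per kb shows where ABCB1 and RUNDC3B stood among the others. In NCI-H1581 it began with SRI at 20.8 CPM per kb, DBF4 at 8.67 and DMTF1 at 5.53, and ended with ADAM22 at 0.0314 and ABCB1 at 0.0124, with RUNDC3B and ABCB4 at or below the range of ABCB1. In NCI-H1581R it began with ABCB1 at 45.3, SRI at 24.1, DBF4 at 16.6 and RUNDC3B at 14.7, where the last 2 overlapped. SRI was the highest of the 10 in NCI-H1703 and NCI-H1703R, with 36.3 and 42.8 CPM per kb, followed by TMEM243 with 8.41 and 9.34.

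The comparison of NCI-H1703R with NCI-H1703 showed whether these genes also differed in the second resistant line. None of the 10 was called by edgeR's quasi-likelihood test at an adjusted p under 0.1, where 14.7% of all genes tested were called, and 3 were called once the replicate number was fitted as a block. ABCB4 had 0 counts in every library of both variants and could not be called. ABCB1 and RUNDC3B had at most 6 counts in a library, so only the other 7 genes were well measured. At an unadjusted p under 0.05 edgeR listed 3 of the 10, against 24.6% of all genes. DESeq2 gave 7 of them an adjusted p and called 0, against 21.3% of the genes for which it gave one. ABCB1, with 1 count in both NCI-H1703 libraries together and 4 in both NCI-H1703R libraries, showed no difference that was detectable at this depth. RUNDC3B fell from 9 counts to 3 in total, which did not pass either (adjusted p = 0.355, edgeR).

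The 7 genes that reached 10 counts in each library of NCI-H1703 and NCI-H1703R all had a log2 fold change above 0, from 0.13 to 0.52 with a median of 0.22, where 53.5% of the genes with that many counts were above 0 and their median was 0.03. With offsets for GC content and length these medians were 0.16 and 0.07. In 4 of the 7 (SLC25A40, ADAM22, CROT and SRI) both NCI-H1703R libraries exceeded both NCI-H1703 libraries, against 31.5% of genes. The differences were between 9.79% and 43.2% in size. Without replicate 1 of NCI-H1703, DBF4 was no longer above 0 (-0.03), and without replicate 1 of NCI-H1703R, DMTF1 was not (-0.12).

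CROT had the largest of these differences, from 6.14 and 6.67 CPM in NCI-H1703 to 9.78 and 8.13 in NCI-H1703R (log2 fold change 0.52, SE 0.19, edgeR adjusted p = 0.165). ADAM22 had 16.7 and 18.1 CPM in NCI-H1703, and 22.4 and 20.4 in NCI-H1703R (0.34, SE 0.13, adjusted p = 0.181). SRI had 69.2 and 73.9 CPM, and 78.3 and 90.4 (0.27, SE 0.11, adjusted p = 0.197). These 3 genes were the ones with an unadjusted p under 0.05, and their groups did not overlap.

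SLC25A40 had 14.7 and 14.1 CPM in NCI-H1703, and 16.7 and 16.2 in NCI-H1703R (log2 fold change 0.22, edgeR adjusted p = 0.331). The other 3 genes overlapped between the variants, with adjusted p of 0.631 for DBF4, 0.578 for TMEM243 and 0.658 for DMTF1. DMTF1 had 29.2 and 22.8 CPM in NCI-H1703, and 35.0 and 23.4 in NCI-H1703R, so its replicates differed more than its variants.

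With the replicate number as a block, the 2 variants were compared between libraries of the same number. That a number marks the same repeat of the culture is an inference, since the labels give only numbers. Among all genes tested, 18.2% were called higher and 34.9% in either direction. Of the 10 genes, of which 7 were well measured, 3 were called, all of them higher in NCI-H1703R. They were ADAM22 (edgeR adjusted p = 0.0534), CROT (0.0509) and SRI (0.0151). With offsets for GC content and length added to the replicate block, ADAM22 (edgeR adjusted p = 0.0225) and CROT (0.0576) were called and SRI was not (0.12), where 22% of all genes were called higher.

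**Figure D2:**
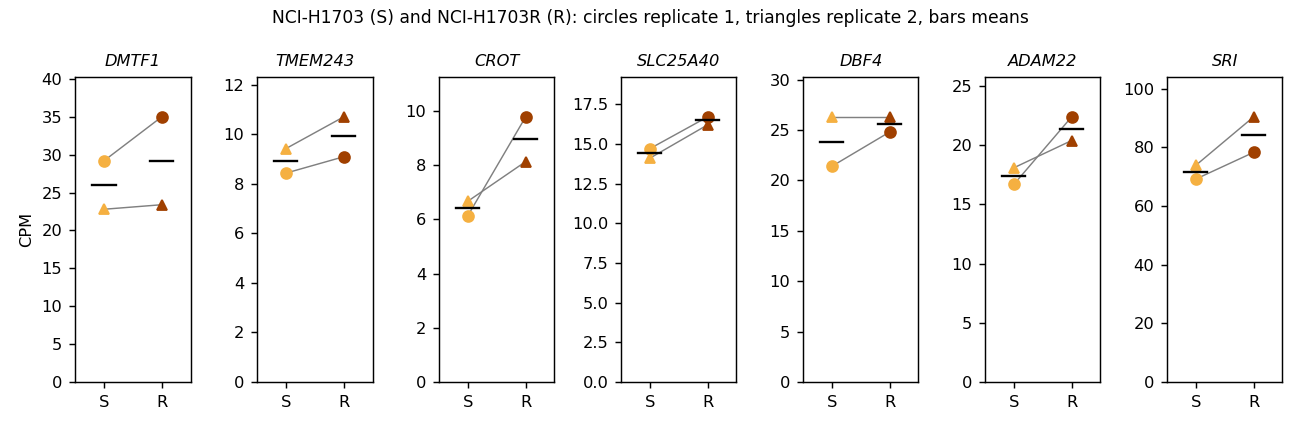
CPM of the 7 genes that reached 10 counts in all libraries of NCI-H1703 (S) and NCI-H1703R (R), each on its own linear axis from 0. Circles are replicate 1, triangles replicate 2, black bars the means of 2 libraries, and grey lines join libraries with the same replicate number. For SLC25A40, ADAM22, CROT and SRI both R points lie above both S points, and for DBF4, TMEM243 and DMTF1 the variants overlap.

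The genes around the 10 were compared to see how far the higher levels reached along the chromosome. Within 5 Mb of the start of ABCB1 on either side, 38 genes were tested, of which 30 had a mean of at least 1 CPM in NCI-H1581 and NCI-H1581R. Without the members, 21 such genes were left, and their median log2 fold change in NCI-H1581R was 0.46, with 3 over 2-fold higher (14.3%) and 0 over 2-fold lower. For comparison, the median was 0.05 over all 12880 genes at that level, with 8.07% over 2-fold higher, and 0.09 over the 597 of chromosome 7, with 10.1%. Within 10 Mb and without the members the median was 0.18, with 5 genes over 2-fold higher and 5 over 2-fold lower. Neighbouring genes are not independent of each other, and no test was made of this difference. The medians of these windows were not recomputed with offsets for GC content and length. Among the members, those offsets lowered the log2 fold change in NCI-H1581R from 0.95 to 0.67 for DBF4 and from 0.67 to 0.45 for CROT. For DMTF1 it went from 0.54 to 0.30, and for TMEM243 from 0.50 to 0.31.

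The nearest genes on the side of DMTF1 were ELAPOR2 and SEMA3D. ELAPOR2 had 385 and 404 counts in NCI-H1581 and 1054 and 1236 in NCI-H1581R (log2 fold change 1.48). SEMA3D, a secreted semaphorin that guides cells and axons, had 686 and 896 counts in NCI-H1581 and 4074 and 4205 in NCI-H1581R (2.34), and the third, the pseudogene HMGN2P11, had 0 in these 4 libraries. On the side of SRI the next 3 genes, STEAP4, ZNF804B and the pseudogene DPY19L2P4, had at most 21 counts in any of these 4 libraries. The only other gene of the window outside the 10 that was over 2-fold higher with at least 1 CPM was FZD1, a receptor for Wnt proteins, 3.55 Mb from ABCB1 (147 and 160 counts, then 421 and 387, 1.34). No gene outside the 10 that passed the filter lay between DMTF1 and SRI, so the higher genes ELAPOR2 and SEMA3D were separated from ABCB1 by DMTF1, TMEM243 and CROT, among others, which differed less.

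In NCI-H1703R the same window held 4 genes called higher by edgeR and 1 called lower, among 20 outside the members with at least 1 CPM. Over all 12558 genes at that level, 1234 were called higher and 1249 lower. With the replicate block 6 and 2 of the 20 were called, where 34.9% of all genes tested were called in either direction. That share also covers genes under 1 CPM, so it is not matched to the 20 and no excess is read from it. STEAP2 was higher (log2 fold change 0.80, adjusted p = 0.0353), as were ELAPOR2 (0.69, adjusted p = 0.0782), SEMA3A (0.40, adjusted p = 0.084) and ANKIB1 (0.30, adjusted p = 0.0994). SEMA3D fell from 460 and 445 counts to 52 and 57 (-3.13, adjusted p = 0.0015), in the direction opposite to its difference in NCI-H1581R. The median over the 20 genes of the window with at least 1 CPM in this line, without the members, was 0.06.

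**Figure D3:**
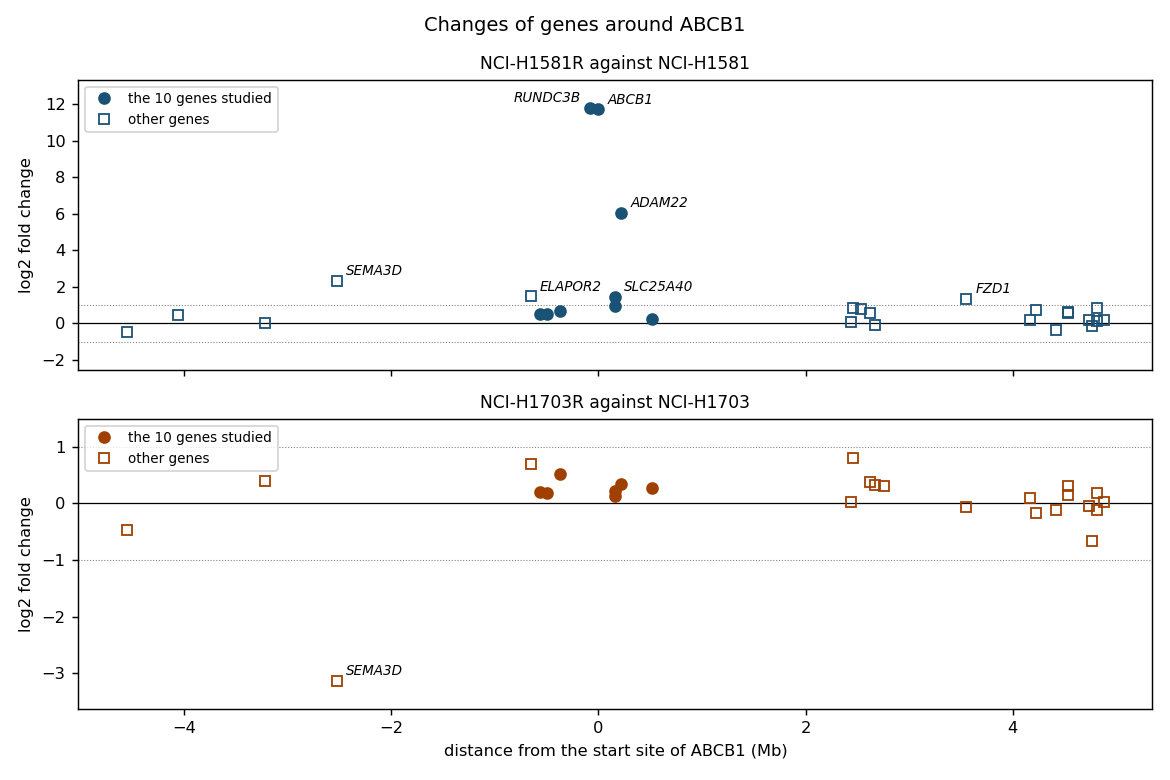
Log2 fold change of the resistant against the sensitive variant for genes within 5 Mb of the start of ABCB1 that had a mean of at least 1 CPM in the line, NCI-H1581R above and NCI-H1703R below, on vertical axes of different range. Filled circles are members of the 10 genes, open squares other genes, dotted lines a 2-fold change, and names are given past it. ABCB1 (11.70), RUNDC3B (11.79) and ADAM22 (6.06) stand apart in NCI-H1581R, while SEMA3D (-3.13) is the gene past a 2-fold change in NCI-H1703R.

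Over the 8 libraries, the 5 genes whose log2(CPM + 0.5) was most like that of ABCB1 by Pearson's r were TMEM229A, THSD7B, POSTN, TYR and PIP5K1B, among 10677 genes with at least 5 CPM in NCI-H1581R. All 5 had at most 5 counts in every library of the other 3 variants. TMEM229A, which lies on chromosome 7 like ABCB1, had 2171 and 2070 counts in NCI-H1581R (r = 0.9996), PIP5K1B 1252 and 1346, and POSTN, which encodes the matrix protein periostin, 313 and 322. RUNDC3B was in place 23 of this order and DBF4, with r = 0.94, in place 191, while SLC25A40 had r = 0.81 and ADAM22 0.33. These values describe a single high variant, since 6 of the 8 points are near 0 for ABCB1.

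Of the 18203 genes tested, few went from near 0 to so many counts. With at most 3 counts in each NCI-H1581 library and at least 1000 in each NCI-H1581R library there were 6 genes (ALDH1A2, RUNDC3B, TMEM229A, SGPP2, NDNF and FILIP1), and a limit of 5 counts added ABCB1 and PIP5K1B. ABCB1 and RUNDC3B were picked for this rise, so nothing is read from their place among these 8 genes. ABCB1 had the most counts of the 8 in NCI-H1581R. ALDH1A2, an enzyme that makes retinoic acid, came next with 5574 and 4165. This order depends on the limits. The efflux transporter gene ABCG2, described below, was outside both with 18 and 11 counts in NCI-H1581, and had 22436 and 17312 in NCI-H1581R. With the variants exchanged, 2 genes met the limit of 3 counts.

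Other efflux transporters were compared as a list of 11 genes, of which 9 were tested. In NCI-H1581R, 1 was called higher and 1 lower by edgeR, where 15.1% of all genes were called. The higher one was ABCG2, the breast cancer resistance protein, a pump that shares many drugs with P-glycoprotein. It had 18 and 11 counts in NCI-H1581 and 22436 and 17312 in NCI-H1581R (log2 fold change 10.36, SE 0.37, adjusted p = 4.16e-05), and at most 8 counts in each library of NCI-H1703 and NCI-H1703R. MVP, the major vault protein, fell (-1.23, adjusted p = 0.00821). The pumps ABCC1, ABCC5 and ABCC10, with more than 1000 counts in each library, were not called in this line.

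In NCI-H1703R 2 genes of that list were called, both higher, namely MVP (log2 fold change 0.67, edgeR adjusted p = 0.0104) and ABCC1, a pump for glutathione conjugates (0.33, adjusted p = 0.0731). With the replicate block 5 of the 9 were called, against 34.9% of all genes. ABCG2 differed by 0.04 there (SE 0.74).

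**Figure D4:**
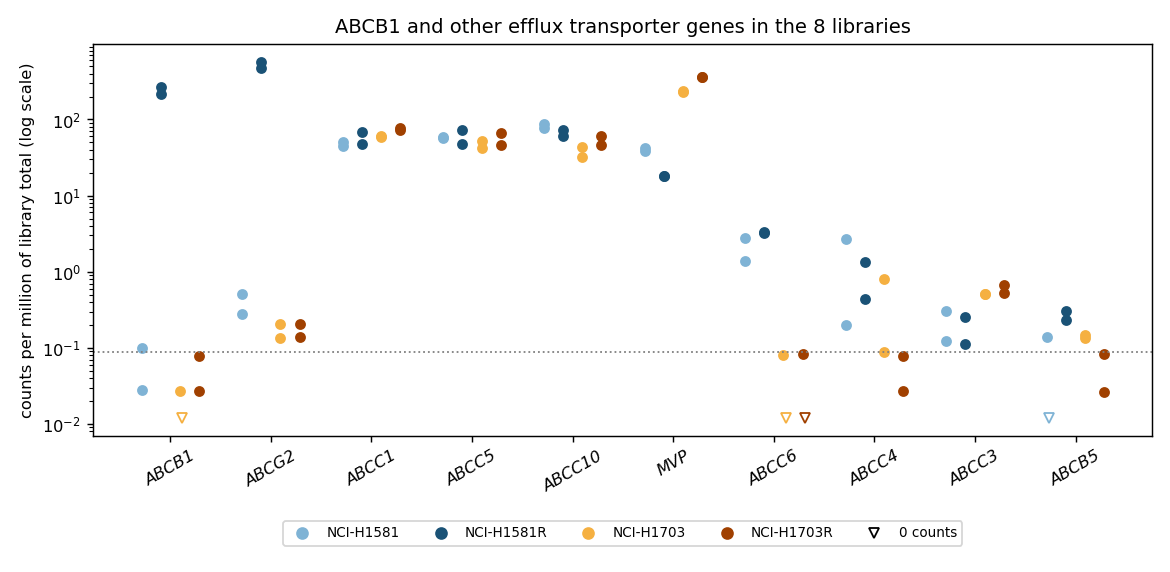
CPM of the unscaled library total, on a log axis, for ABCB1 and the 9 other efflux transporter genes tested, with colours for the 4 variants. Points are single libraries, open triangles libraries with 0 counts, and the dotted line 3 counts. In NCI-H1581R ABCB1 and ABCG2 both stand above 100 CPM while they lie at or below 1 CPM in the other variants, and ABCC1, ABCC5 and ABCC10 are high in all 8 libraries.

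Factors known to act on the ABCB1 promoter were compared as a list of 23 genes, of which 22 were tested. In NCI-H1581R 2 were called higher and 2 lower by edgeR, where 15.1% of all genes were called. HIF1A, the oxygen-regulated factor, had 4242 and 5879 counts in NCI-H1581 and rose to 10259 and 11269 in NCI-H1581R (1.04 on the log2 scale, adjusted p = 0.0134), and FOXO3 rose too (0.80, adjusted p = 0.0354). EGR1, an immediate early gene downstream of ERK, fell from 1607 and 2351 counts to 59 and 43 (-5.32, adjusted p = 0.000127), and RELA, a subunit of NF-kB, fell (-0.72, adjusted p = 0.0388). YBX1, the Y-box protein, was not called in this line (-0.09, SE 0.24, adjusted p = 0.872).

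In NCI-H1703R 1 gene of that list was called higher and 5 lower by edgeR, where 14.7% of all genes were called, and 13 of the 22 were called with the replicate block, against 34.9%. EGR1 was the higher one (log2 fold change 1.90, adjusted p = 0.00444). JUN fell most (-1.65, adjusted p = 0.00415), followed by NFYB, a subunit of NF-Y (-0.66, adjusted p = 0.0135), and YBX1 (-0.57, adjusted p = 0.0412). MBD2 and KAT2B were the other 2 called lower.

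Genes that work with the neighbours were a list of 24, of which 23 were tested. In NCI-H1581R 1 was called higher and 2 lower by edgeR, where 15.1% of all genes were called. LGI1, a ligand of ADAM22, had 11 and 29 counts in NCI-H1581 and rose to 112 and 124 in NCI-H1581R (2.50 on the log2 scale, adjusted p = 0.024). CPT1A, which brings long-chain fatty acids into mitochondria, fell (-2.31, adjusted p = 0.0138), as did MCM6, a subunit of the helicase on which CDC7 and DBF4 act (-0.63, adjusted p = 0.0662). CDC7 itself was not called (0.29, SE 0.17, adjusted p = 0.358).

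In NCI-H1703R 3 genes of that list were called higher and 1 lower by edgeR, where 14.7% of all genes were called, and 11 of the 23 were called with the replicate block, against 34.9%. Among the higher ones were CPT2 (log2 fold change 0.56, adjusted p = 0.044) and CRAT (0.37, adjusted p = 0.0842), which like CROT act on carnitine esters. LGI2 fell (-0.97, adjusted p = 0.0265).

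The marker genes of cell types also differed between the variants. The summed level of 5 epithelial markers was 14.3 to 21.4 CPM in NCI-H1581 and NCI-H1581R, and 72.5 to 75.4 CPM in NCI-H1703 against 6.64 to 8.73 in NCI-H1703R, with 1 of the 5 called lower in each line (EPCAM in NCI-H1581R and KRT18 in NCI-H1703R, where KRT8 was called lower too with the replicate block). In NCI-H1581R all 4 fibroblast markers were called lower by edgeR, with a sum of 990 to 1100 CPM against 2250 to 2390 in NCI-H1581, and in NCI-H1703R 1 of them, COL1A1, was called higher (sum 23.3 to 28.7 CPM against 2.45 to 2.46). Of 3 squamous markers, TP63 and SOX2 were called higher in NCI-H1581R (sum 33.0 to 42.6 CPM against 7.47 to 7.57), and SOX2 was called lower in NCI-H1703R. Of 3 glandular markers NKX2-1 was called higher in NCI-H1581R (sum 39.8 to 67.3 CPM against 14.8 to 17.5). Of the leucocyte markers CD3E and MS4A1 were at 0 in all 8 libraries, and PTPRC had 2 and 0 counts in NCI-H1581, 15 and 15 in NCI-H1581R and 0 in the other 4 (called higher in NCI-H1581R with the replicate block alone), while CD68 was called lower in NCI-H1581R and higher in NCI-H1703R. Endothelial markers summed to at most 0.45 CPM. The part of these differences in the levels of ABCB1 and its neighbours was not tested, and in bulk RNA a larger share of cells with a transcript and more of it in each cell cannot be told apart.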

How the data were processed

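Total RNA of 8 cultures was sequenced in paired reads. The authors trimmed the reads with cutadapt, ran Salmon (GRCh38) and collapsed its transcript estimates by gene with tximport. What they deposited are estimated counts, rounded and not normalised. Tool versions, annotation and strandedness are not given in the sources used here. All 8 columns were used. The copy number arrays of the study were not analysed here, and 1 gene that the naming rule selects is not reported here.

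Genes with at least 10 counts in total (18203 of 37441) were fitted in each line's own 4 libraries with edgeR 4.0.16 in R 4.3.3 (TMM, quasi-likelihood test, two-sided). A gene was called at a Benjamini-Hochberg adjusted p under 0.1 over all genes tested. SE is the log2 fold change divided by the square root of F. CPM use TMM factors over the 8 libraries, except in the plot of efflux transporters, and CPM per kb the canonical transcript of GENCODE v44. Counting intervals are exact conditional 95% intervals for the ratio of summed counts. Likeness was Pearson's r. Genes named beside the 10 were the 3 nearest on each side, window genes over 2-fold, the 5 most like ABCB1 and up to 4 called genes per list and line. YBX1, MBD2, KAT2B, the marker genes, CDC7, ABCC5 and ABCC10, the genes called in the window of NCI-H1703R, and the genes past the count limits were named in addition, after their values were seen. Members and lists were chosen with earlier results of these data known.

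Groups follow the labels. The main fit had no replicate block, after the study's methods. Same-numbered replicates can be paired, since the sources state that the procedure was repeated for the second replicate (correlation of deviations across genes 0.243 in NCI-H1581 and 0.55 in NCI-H1703). The sources do not say that same-numbered libraries of both variants came from the same repeat. Replicates differed by more than sampling noise (chi-square over its degrees of freedom 24.6 to 103). With 2 replicates, p-values measure the spread between these cultures. The fits were tested on simulated data. Alternatives were DESeq2 1.42.0, RLE normalisation, other filters, the replicate block, a joint fit, an adjusted p threshold of 0.05, windows of 2 and 10 Mb, leaving out each replicate and, added after seeing the data, offsets for GC content and length.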

Additional observations from a re-analysis of the deposited data

Results flagged for a closer look

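In 12 of the genes reported, out of 110 tested among the members, their window and the lists, both resistant libraries lay on one side of both sensitive libraries in NCI-H1581R and on the other side in NCI-H1703R. Only genes called in at least 1 line were taken, and RUNDC3B as a member. Over all 18203 genes tested, 1320 (7.25%) lay so and were called in at least 1 line. The difference between the lines was not tested. Among ABCB1 and its neighbours this was RUNDC3B, with a log2 fold change of 11.79 in NCI-H1581R and -1.58 in NCI-H1703R, where it had 1 to 6 counts per library. RUNDC3B was picked for the first value, and the second was not called (edgeR adjusted p = 0.355), so nothing is read from its place among the 12. Around them it was SEMA3D (2.34 and -3.13). Among the efflux transporters and regulators it was MVP (-1.23 and 0.67), EGR1 (-5.32 and 1.90), KAT2B (0.31 and -0.36) and MBD2 (0.21 and -0.44). Among the partners of the neighbours it was CPT2 (-0.18 and 0.56) and CRAT (-0.09 and 0.37). Among the marker genes it was SOX2 (2.64 and -6.62), NKX2-1 (1.81 and -1.18), COL1A1 (-1.09 and 4.65) and CD68 (-2.37 and 1.23).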

How the results depend on the processing

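Of the values recomputed under other settings, 209 kept their direction and their side of the threshold or stayed within the spread between replicates or, for counts, within 1.5 times. Another 16 moved by more than that spread, 10 passed a threshold they had missed or were counts that rose by over 1.5 times, and 5 changed sign, none of them a called value. Those 5 were DBF4 (-0.03 to 0.31) and DMTF1 (-0.12 to 0.45) in NCI-H1703R, over the fits with 1 replicate left out, and SRI in NCI-H1581R over such fits (-0.02 to 0.42), with GC and length offsets (-0.01) and with these and the replicate block (-0.02). The number of the 10 genes called in NCI-H1703R rose from 0 to 3 with the replicate block and to 2 with GC and length offsets and the replicate block. The fit with the replicate block also raised the called genes of the lists in NCI-H1703R, to 5 efflux transporters, 13 regulators and 11 partners, and the calls over all genes from 2683 to 6356. It raised the called genes around ABCB1 in NCI-H1703R from 4 higher and 1 lower to 6 and 2, and added KRT8 in NCI-H1703R and PTPRC in NCI-H1581R to the called markers. With GC and length offsets the log2 fold change in NCI-H1581R was 11.42 for ABCB1, 6.65 for ABCB4, 1.12 for SLC25A40 and 5.71 for ADAM22, and with the replicate block added 11.42, 6.64, 1.12 and 5.72. DESeq2 gave 6.12 for ABCB4. Leaving out 1 replicate at a time gave 11.15 to 12.81 for ABCB1, 10.82 to 14.18 for RUNDC3B and 6.66 to 6.79 for ABCB4. Fitted values of these 3 genes depend on the prior count, because the sensitive libraries held 0 to 4 counts. Within 2 Mb of ABCB1 the median log2 fold change in NCI-H1581R was 1.20. That window holds mostly the 10 genes. The cause of these differences was not tested. Depth limits ABCB1, ABCB4 and RUNDC3B in NCI-H1703, where they had 0 to 6 counts per library.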
